A study of Mus musculus with 55 samples.

Results

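Common myeloid progenitors (CMPs) of wild-type (WT) mice were compared with short-term hematopoietic stem cells (ST-HSCs) of WT mice, gene by gene, to describe how the transcriptome differs between a stem cell compartment and the first progenitor compartment committed to the myeloid lineages. Every WT library of both populations in the count table was taken, CMP replicates 2, 3, 4 and 5 and ST-HSC replicates 2, 3 and 5. These are 7 of the 55 libraries of the series and 7 of the 46 in that table, and a WT replicate 4 of ST-HSCs was not analysed here. Of 55421 genes in the table, 16428 had enough reads to be tested. The series holds bulk RNA-seq of small pools of cells sorted by FACS from the bone marrow of WT, Sting-KO, Tet2-KO and Tet2/Sting-dKO mice and was made to study clonal hematopoiesis after loss of Tet2. The same contrast in Tet2-KO libraries, 4 of CMPs and 4 of ST-HSCs, shares no library with the WT contrast and was used as a second set of samples.

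The labels call these mice WT without naming alleles, and the methods give a C57BL/6 background. The Tet2-KO mice were Tet2 f/f, Mx1-Cre animals, in which Cre runs from an interferon-inducible promoter. They were given poly(I:C) from 4 weeks of age and were analysed 16 weeks after induction. Whether the WT mice also received poly(I:C) is not given in the sources used here. ST-HSCs were sorted as Lin- cKit+ Sca1+ CD48- CD150- cells. CMPs were sorted as Lin- cKit+ Sca1- cells with intermediate CD16/32 and intermediate to positive CD34. A gate of this kind bounds a population by surface proteins and does not make it uniform. The labels give 200 cells per library and the methods about 300. Figure legends count the replicates of each population as mice, and the labels do not tie single libraries to mice.

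Blood formation begins with stem cells that divide seldom and hold their identity through transcription factors such as HLF and MECOM. CMPs lie downstream of them and give rise to granulocyte-macrophage progenitors (GMPs) and megakaryocyte-erythroid progenitors (MEPs). Commitment to the myeloid lineages is marked by PU.1 and C/EBP factors and by neutrophil granule proteases on one side, by GATA1 and KLF1 on the other, and by entry into the cell cycle.

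The 7 libraries held 51966192 to 78705617 counts, and more genes were detected in the CMP libraries (18569 to 19012) than in the ST-HSC libraries (17753 to 18126). The first principal component carried 52.6% of the variance and separated all CMP from all ST-HSC libraries. Correlations of log2 levels across genes were 0.965 to 0.970 among CMP, 0.936 to 0.940 among ST-HSC and 0.888 to 0.902 between CMP and ST-HSC libraries. Properties of the RNA moved with the populations as well. Mitochondrial reads were 8.73 to 9.02% of counts in ST-HSCs and 5.94 to 6.57% in CMPs, and the mean GC content of counted reads was 47.5 to 47.6% against 48.9 to 49.3%. Transcripts of ribosomal RNA loci were also higher in CMPs. AY036118 was at 5886, 11891 and 12831 CPM, a count relative to the scaled library total, in ST-HSC replicates 2, 3 and 5 and at 56779, 31380, 38062 and 45210 CPM in CMP replicates 2 to 5, and CT010467.1 was at 3157, 3796 and 7826 against 19995, 10463, 24636 and 26495 CPM, a call lost with a correction for GC content; both were picked with their values in view. The part of these differences in the results was not tested. In bulk samples, fewer cells of a type and less RNA per cell cannot be told apart.

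The genes of the sorting gate followed it, which is a description since the sort used their proteins. Ly6a, which encodes Sca1, was at 36.7, 49.0 and 61.9 CPM in ST-HSCs and at 2.38, 3.91, 0.616 and 8.45 CPM in CMPs. Cd48 was at 33.0, 48.6 and 53.2 against 302, 271, 367 and 328 CPM, and Fcgr3, which encodes CD16, was at 0.102, 0.186 and 0.0474 against 18.05, 13.5, 19.6 and 21.9 CPM. Kit stood at 185, 246 and 231 against 200.2, 202, 186 and 215 CPM, with the groups overlapping. Slamf1, which encodes CD150, was listed at 0, 1.59 and 0 CPM in ST-HSCs and at 11.5, 10.8, 12.2 and 15.4 CPM in CMPs, a population that was not gated on CD150. Marker lists of other cell types were summed in each library. The summed level of 12 late neutrophil genes stayed at 0.903 to 9.96 CPM in ST-HSCs and 3.18 to 6.03 CPM in CMPs. The 10 GMP markers summed to 166 to 253 CPM in ST-HSCs and 4076 to 5644 CPM in CMPs, and the 10 MEP markers to 137 to 476 CPM against 722 to 1781 CPM. The 10 markers of long-term HSCs (LT-HSCs) summed to 270 to 305 CPM in ST-HSCs and 65.7 to 82.4 CPM in CMPs, and the 10 markers of common lymphoid progenitors (CLPs) to 122 to 219 against 61.5 to 144 CPM, overlapping ranges. Endothelial markers summed to 88.6 to 110 CPM in ST-HSCs, of which Emcn alone accounted for most, and to 16.9 to 43.3 CPM in CMPs. B cell markers summed to 71.6 to 85.2 against 41.3 to 66.7 CPM, T and NK cell markers to 38.2 to 51.2 against 9.67 to 18.4 CPM and macrophage markers to 8.92 to 21.6 against 3.90 to 5.404 CPM.

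Of the 16428 genes tested, 1265 were higher in CMPs, which is 7.7%, and 747 were lower, which is 4.55%. A call here is a Benjamini-Hochberg adjusted p of at most 0.05 by edgeR's quasi-likelihood test together with a change of at least 2-fold, and all fold changes below are log2 values of CMP minus ST-HSC ± SE over 4 and 3 libraries. The median over all genes tested was -0.02. Protein-coding genes made up 1106 of the higher and 635 of the lower calls. Without regard to the test, all 4 CMP libraries lay above all 3 ST-HSC libraries for 17.7% of genes and below them for 15.7%. The smallest adjusted p in the lower direction belonged to Rgs1, a regulator of G-protein signalling, named after its values were seen: it was at 4030, 4803 and 4494 CPM in ST-HSCs and 661, 739, 662 and 727 CPM in CMPs, a change of -2.67 ± 0.09 (adjusted p = 1.81e-05). The most negative fitted value, -9.18 for Gm45717, came from 534, 685 and 0 CPM in ST-HSCs against 0.103, 0.547, 2.0 and 0 CPM in CMPs and rests on ST-HSC replicates 2 and 3, with replicate 5 at 0. Its call was lost when any library but ST-HSC replicate 5 was left out, with adjusted p up to 0.0959, and its value ran from -10.68 without CMP replicate 4 to -8.57 without ST-HSC replicate 3.

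**Figure D1:**
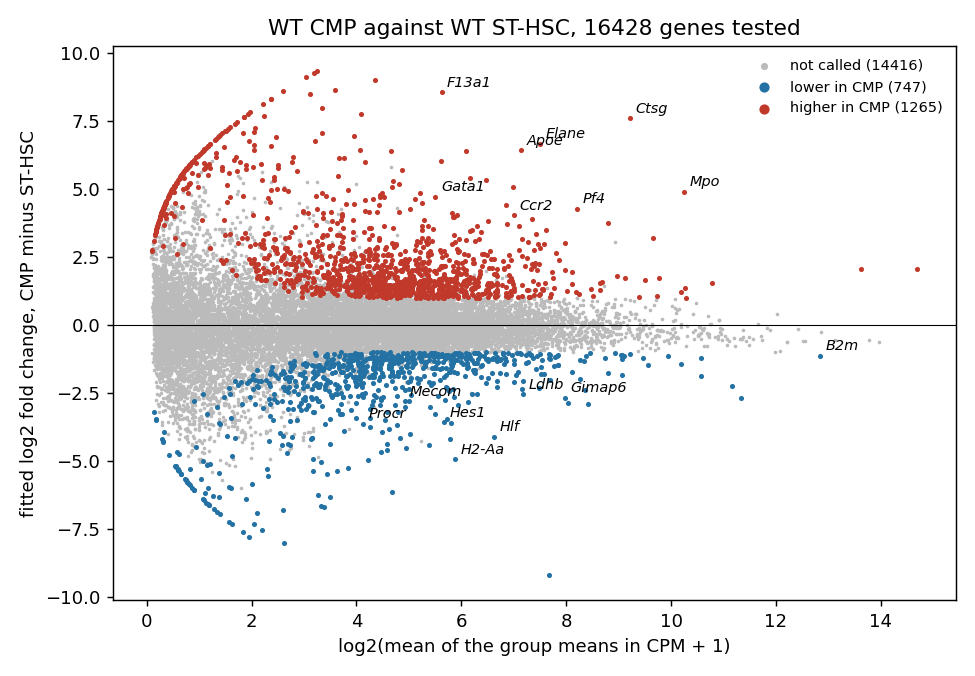
Each point is 1 of 16428 genes, with the log2 of the mean of both group means in CPM plus 1 on the x axis and the fitted log2 fold change of CMP minus ST-HSC on the y axis. The 1265 genes called higher in CMPs (red) and the 747 called lower (blue) spread over the whole range of levels, with granule protease genes among the highest folds and H2-Aa and Hlf among the lowest.

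The calls varied with base composition. When genes were ordered by the GC content of their annotated transcripts into 10 groups, the median change ran from -0.38 in the lowest to 0.64 in the highest group, the share called higher from 3.17% to 16.7% and the share called lower from 6.22% to 1.46%. In the Tet2-KO contrast the median ran from -0.40 to 0.13. With a correction for GC content, added after seeing the data, 1020 genes were higher and 796 lower, of which 941 and 602 were among the calls above, so values of single genes are given below with their libraries.

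A fit of all 46 libraries, which shares 1 estimate of the spread with the other populations and genotypes, called 511 genes higher and 168 lower. Of 131 calls followed gene by gene, 78 passed in it. The 53 calls lost there were, among myeloid genes, Prtn3, Ms4a3, Clec12a, Cd63, Fcgr2b, Zeb2, Csf1r, Il1r1, Cx3cr1 and Ms4a6c. Among erythroid, megakaryocytic and basophil genes they were Gata1, Gata2, Pf4, Vwf, Itga2b, Aqp1, Hbb-bt, Hbb-bs, Mmrn1, Mcpt8, Hdc and Ms4a2. Among stem cell and surface genes they were Mecom, Procr, Mllt3, Emcn, Vldlr, Esam, Gprasp2, Hoxa3 and Hoxa9, and among cell cycle genes Mcm2, Mcm3, Mcm7, Rrm2, Ccna2, Cdc20, Top2a and Racgap1. The others were Ifi44, Nr4a1, Tnfaip3, Aldoc, Nop2, Gm5111, Gcsam, Il18, Tnip3, Bcl2, Mcl1, Rpl13, AY036118 and Gm45717.

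The same contrast in the Tet2-KO libraries called 774 of 16014 genes higher (4.83%) and 736 lower (4.6%). Of the 747 genes lower in WT CMPs, 710 were tested there, 692 had the same sign (97.5%) and 349 were called lower too, which is 46.7% of the WT calls and 48.5% of the 719 Tet2-KO calls that were tested in WT. Of the 1265 genes higher in WT CMPs, 1196 were tested, 1026 had the same sign (85.8%) and 341 were called higher too, which is 27% of the WT calls and 46.2% of the 738 Tet2-KO calls that were tested in WT. Calls of opposite direction numbered 3 and 1. For the 1196 higher genes the median change was 1.91 in WT and 0.98 in Tet2-KO, and for the 710 lower genes it was -1.69 and -1.48. These genes were chosen by their WT values. Over all 16014 genes tested in Tet2-KO, 46.8% had a positive value. Without Tet2-KO CMP replicate 3 the Tet2-KO contrast called 510 higher and 473 lower, and without replicate 5 of that group 489 lower. Across 15286 genes tested in both, the log2 fold changes correlated with a Pearson r of 0.62, a description over genes that are not independent replicates. Tet2 itself was at 11.6 to 35.2 CPM in WT ST-HSCs, 17.4 to 23.5 CPM in WT CMPs, 10.3 to 25.9 CPM in Tet2-KO ST-HSCs and 6.05 to 25.8 CPM in Tet2-KO CMPs. These ranges overlap, and counts over a whole gene do not resolve the deleted part, so they check nothing about the genotype.

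**Figure D2:**
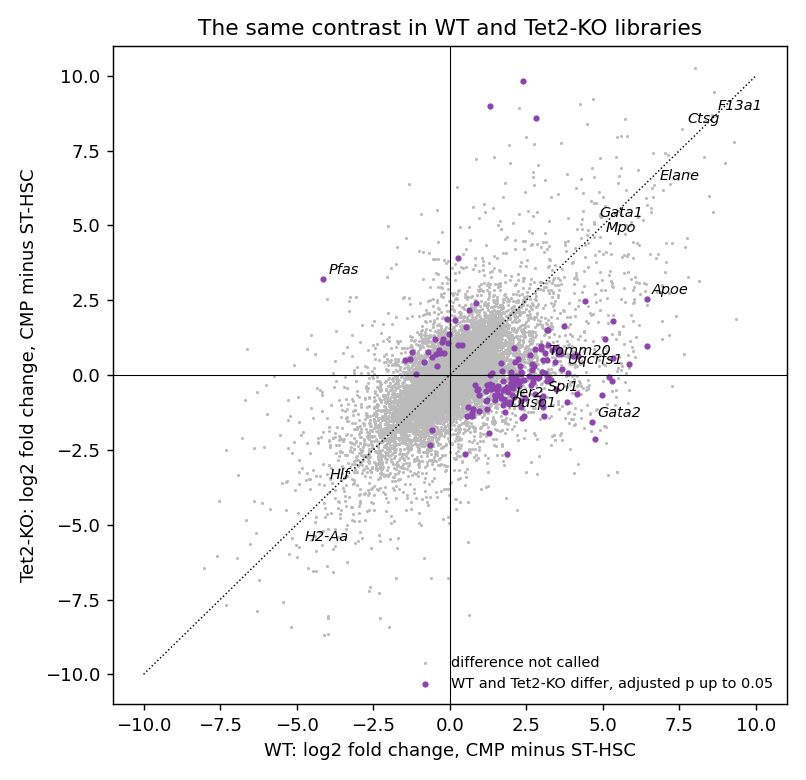
The log2 fold change of CMP minus ST-HSC in WT (x axis) and in Tet2-KO (y axis) is plotted for 15286 genes, with the dotted line at equal change. Genes whose change differed between genotypes at an adjusted p of at most 0.05 (purple) lie mostly near 0 on the y axis and to the right on the x axis, and Mpo and Hlf lie near the line.

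Genes of the primary, or azurophil, granule of neutrophils and monocytes were among the largest changes. Of 20 list members tested, 9 were higher (45%, beside 7.7% of all genes) and 2 lower (10%, beside 4.55%), with a median of 1.67. Mpo, the myeloperoxidase that makes hypochlorous acid, was at 85.1, 89.4 and 61.7 CPM in ST-HSCs and 1928, 2281, 2896 and 2325 CPM in CMPs. Every CMP library stood far above every ST-HSC library, and the change was 4.91 ± 0.22 (adjusted p = 7.94e-05) in WT and 4.61 in Tet2-KO. The serine protease gene Ctsg was at 4.79, 9.15 and 4.36 against 1119, 1048, 1502 and 1058 CPM, a change of 7.60 ± 0.38 (adjusted p = 0.000116), and its CMP libraries did not approach the ST-HSC range. Elane, encoding neutrophil elastase, was at 2.28, 7.76 and 0.379 against 401, 352, 370.0 and 306 CPM, a change of 6.67 ± 0.98 (adjusted p = 0.00434) that became 8.08 without ST-HSC replicate 3, the library with the most Elane in its group. Prtn3, encoding proteinase 3, already stood at 22.4, 62.5 and 34.3 CPM in ST-HSCs and reached 227, 330.3, 418 and 269 CPM in CMPs, a smaller change of 2.97 ± 0.40 (adjusted p = 0.0029).

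These 4 genes are among the called list members whose promoters hold the motif below, and their promoters are shown. Each window runs from 250 bases before to 50 bases after the RefSeq start on GRCm38.p6, read 5′ to 3′ on the gene's strand, and capitals mark GAGGAAG, the core of a PU.1 binding motif, searched on both strands.

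Mpo, chr11:87793534-87793833, plus strand: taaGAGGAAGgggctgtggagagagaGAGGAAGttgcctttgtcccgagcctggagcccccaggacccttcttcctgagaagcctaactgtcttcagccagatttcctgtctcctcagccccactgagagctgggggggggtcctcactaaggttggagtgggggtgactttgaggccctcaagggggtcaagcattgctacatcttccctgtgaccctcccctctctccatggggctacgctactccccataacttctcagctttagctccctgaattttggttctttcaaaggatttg
Elane, chr10:79886062-79886361, plus strand: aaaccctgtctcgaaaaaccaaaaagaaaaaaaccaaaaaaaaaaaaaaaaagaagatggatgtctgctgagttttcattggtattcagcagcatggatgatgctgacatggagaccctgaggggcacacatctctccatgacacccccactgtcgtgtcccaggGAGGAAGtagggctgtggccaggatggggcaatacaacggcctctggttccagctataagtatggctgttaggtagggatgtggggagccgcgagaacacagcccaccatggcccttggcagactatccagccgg
Prtn3, chr10:79879417-79879716, plus strand: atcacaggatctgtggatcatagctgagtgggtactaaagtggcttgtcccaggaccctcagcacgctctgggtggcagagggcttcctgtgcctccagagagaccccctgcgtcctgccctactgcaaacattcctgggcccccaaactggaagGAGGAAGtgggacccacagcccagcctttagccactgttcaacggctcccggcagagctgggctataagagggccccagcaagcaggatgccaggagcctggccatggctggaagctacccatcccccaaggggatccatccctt
Ctsg, chr14:56102525-56102824, minus strand: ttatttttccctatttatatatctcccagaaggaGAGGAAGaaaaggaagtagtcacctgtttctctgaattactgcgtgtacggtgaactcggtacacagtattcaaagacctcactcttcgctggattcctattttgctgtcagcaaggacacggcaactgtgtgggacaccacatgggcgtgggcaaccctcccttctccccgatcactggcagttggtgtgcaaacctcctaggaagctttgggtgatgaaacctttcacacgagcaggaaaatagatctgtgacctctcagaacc

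All 4 windows hold the motif on the sense strand, at 247 and 224 bases before the start in Mpo, 216 in Ctsg, 95 in Prtn3 and 85 in Elane. Among list members with a promoter in the table it was found in 7 of 16 (43.8%), among all 27025 promoters in 15.4% and among 10500 promoters of genes tested in 16.1%. Of 11 called members with a promoter 6 held it, these 4, Clec12a and Cd63, and Cd63 was lower in CMPs. Ms4a3 and Cst7, both higher in CMPs, did not hold it. Among promoters of all genes called higher the share was 14.3%, below that of all promoters, and among those called lower 23.3%. The C/EBP-like letters TTGCNNAA, also searched on both strands, were in 4 of the 16 (25%) in 12.2% of all promoters and in 10.3% of those of genes tested. A match of letters is a description and not a site.

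Of the other members, Ms4a3, a membrane protein of granulocyte-monocyte precursors, was at 2.54, 5.24 and 1.68 CPM in ST-HSCs and 83.6, 81.5, 73.9 and 44.8 CPM in CMPs (4.48 ± 0.48, adjusted p = 0.00129), or 5.07 without ST-HSC replicate 3. Cst7, an inhibitor of cysteine cathepsins, changed by 3.65 ± 0.19 (adjusted p = 0.000118) and the inhibitory receptor gene Clec12a by 2.06 ± 0.23 (adjusted p = 0.00145). Hp, encoding haptoglobin, was at 0.0682, 3.39 and 0.0474 CPM against 14.2, 25.3, 31.9 and 20.4 CPM, and with adjusted p = 0.0768 it did not pass although its groups did not overlap. In the opposite direction, Gstm1, a glutathione transferase, fell from 276, 314 and 373 CPM to 89.2, 116, 136 and 112 CPM (-1.49 ± 0.17, adjusted p = 0.00159), and Cd63, a granule membrane tetraspanin, fell by 1.17. In Tet2-KO, 8 of the 9 higher and both lower members were called in the same direction, beside 27% of all WT higher and 46.7% of all WT lower calls.

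CMP levels of Mpo, Elane and Ms4a3 lay under those of WT GMPs. Mpo was at 3.17 to 6.02 CPM in LT-HSCs, at 18708 to 25184 CPM in GMPs and at 7.5 to 32.3 CPM in MEPs. Elane was at 7016 to 9876 CPM in GMPs and 0.889 to 6.92 CPM in MEPs, and Ms4a3 at 814 to 1115 against 0.612 to 3.43 CPM. These levels are set side by side without a test.

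**Figure D3:**
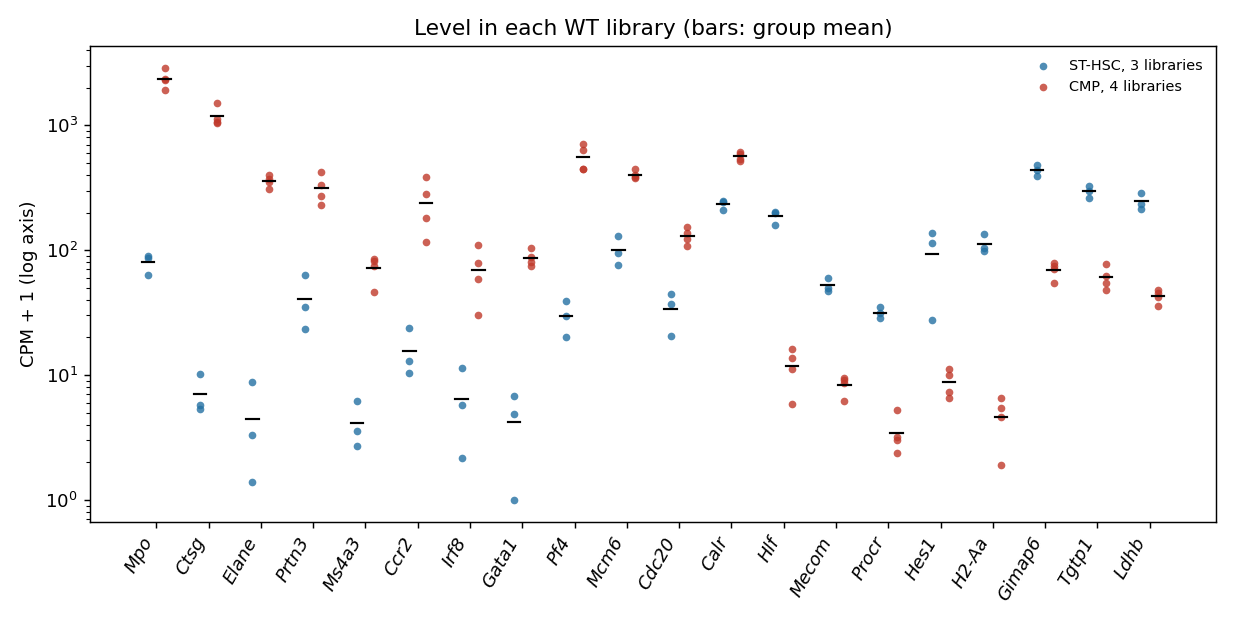
Points are CPM plus 1 on a log axis for 20 genes in the 3 WT ST-HSC (blue) and 4 WT CMP libraries (red), and bars are group means. For each of these genes the CMP and ST-HSC libraries do not overlap, from Mpo, Ctsg and Elane at the left, higher in CMPs, to H2-Aa, Gimap6, Tgtp1 and Ldhb at the right, lower in CMPs.

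Of 22 transcription factor genes of the myeloid list, 3 were higher (13.6%, beside 7.7% of all genes) and 1 lower (4.55%, as of all genes), or 3 and 4 with the GC correction. Spi1, which encodes PU.1, was at 11.7, 11.1 and 14.8 CPM in ST-HSCs and 97.4, 89.4, 119 and 106 CPM in CMPs, with all CMP libraries above (3.04 ± 0.18, adjusted p = 0.000164). In Tet2-KO it went from 15.7 to 23.5 to 9.37 to 16.3 CPM, overlapping ranges with a change of -0.70 (adjusted p = 0.132), and the 2 changes differed by 3.71 ± 0.30 (adjusted p = 8.34e-05). Irf8, the regulator of monocytic and dendritic fate, was at 4.75, 10.4 and 1.15 against 57.7, 29.4, 109 and 78.0 CPM (3.65 ± 0.79, adjusted p = 0.018). The call of Irf8 was lost without ST-HSC replicate 2 (adjusted p = 0.0630), and its value was 4.54 without ST-HSC replicate 3. Zeb2, a zinc finger repressor, changed by 1.56 ± 0.27 (adjusted p = 0.00832). Cebpa, whose product acts before the GMP stage, was at 5.42, 6.57 and 9.76 against 10.0, 17.6, 25.1 and 11.6 CPM and did not pass (1.16 ± 0.40, adjusted p = 0.088), while it was called higher in Tet2-KO with 2.00. The difference between these changes was -0.87 ± 0.52 (adjusted p = 0.606).

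Of 18 receptor genes for myeloid growth factors and cytokines, 4 were higher (22.2%, beside 7.7% of all genes) and 2 lower (11.1%, beside 4.55%), with a median of 0.11. With the GC correction 3 were higher and 2 lower, and the median was -0.32. Csf1r, the receptor of M-CSF, was at 2.22, 0.593 and 1.37 CPM against 16.04, 10.0, 32.9 and 20.6 CPM (3.82 ± 0.62, adjusted p = 0.00623). Il1rl1, the IL-33 receptor gene, had no read in any ST-HSC library and stood at 7.38, 8.82, 5.82 and 18.6 CPM in CMPs, at least 251-fold higher against a floor of 3 counts per library. Il1r1, the IL-1 receptor gene, was lower, with a change of -1.54 ± 0.29 (adjusted p = 0.0111) in WT and -1.73 in Tet2-KO.

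Of 18 monocyte and dendritic cell genes tested, 9 were higher (50%, beside 7.7% of all genes) and 2 lower (11.1%, beside 4.55%), with a median of 1.29. F13a1, the coagulation factor XIII A chain made by monocytes and megakaryocytes, had the largest rise of called genes with at least 50 CPM in CMPs and groups that do not overlap, from 0.409, 0.256 and 0.0474 CPM to 57.3, 87.7, 127 and 114 CPM (8.57 ± 0.71, adjusted p = 0.000457), and changed by 8.69 in Tet2-KO. Ly86, the partner of the Toll-like receptor homologue RP105, was at 0, 0.139 and 0 against 40.8, 16.2, 72.9 and 25.4 CPM (8.997 ± 1.16, adjusted p = 0.00252), or 10.50 without ST-HSC replicate 3, the only ST-HSC library with a read. Ccr2, the chemokine receptor of inflammatory monocytes, was already present in ST-HSCs at 9.39, 11.9 and 22.7 CPM and reached 115, 178, 382 and 279.7 CPM, and Ly6c2 changed by 4.72 ± 0.68. Cx3cr1, the fractalkine receptor gene, had no read in ST-HSCs and was at least 109-fold higher in CMPs. Cd74, the invariant chain of MHC class II, ran the other way, from 33.7, 52.2 and 45.4 CPM to 1.57, 1.37, 2.45 and 2.92 CPM (-4.37 ± 0.34, adjusted p = 0.000382).

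Some erythroid and megakaryocytic genes were higher in CMPs. Of 26 erythroid genes tested, 10 were higher and 3 lower with a median of 2.86, or 6 and 3 with the GC correction, and of 26 megakaryocytic genes 8 were higher and 3 lower with a median of 1.48. The shares higher were 38.5% and 30.8%, beside 7.7% of all genes, and the share lower was 11.5% in each, beside 4.55%. Pf4, the platelet chemokine, was at 38.1, 28.8 and 19.2 CPM in ST-HSCs and 448, 636, 446 and 703 CPM in CMPs (4.29 ± 0.32, adjusted p = 0.000304), and at 331 to 358 CPM in LT-HSCs. The ST-HSC libraries were the low point between LT-HSCs and CMPs. Vwf, encoding von Willebrand factor, was also lower in ST-HSCs (3.32, 0.906 and 0.426 CPM) than in LT-HSCs (9.58 to 49.8 CPM). In CMPs it was at 21.4, 29.1, 14.3 and 19.4 CPM, within the LT-HSC range. Its change from ST-HSCs to CMPs was 3.75 ± 0.74 (adjusted p = 0.0127), or 4.94 without ST-HSC replicate 2. Itga2b, the platelet integrin CD41, changed by 3.12 ± 0.38 (adjusted p = 0.00215). Mmrn1, encoding the platelet protein multimerin 1, was lower in CMPs (91.7, 55.3 and 64.4 against 9.17, 18.8, 16.3 and 19.2 CPM).

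Of 21 erythro-megakaryocytic transcription factor genes, 4 were higher (19%, beside 7.7% of all genes) and 2 lower (9.52%, beside 4.55%). The other 15 did not pass, and the median was 0.55. With the GC correction 3 were higher and 2 lower. Gata1, the master regulator of erythroid and megakaryocytic cells, was at 5.85, 3.88 and 0 CPM in ST-HSCs and 79.2, 86.6, 73.6 and 104 CPM in CMPs. No CMP library came near the ST-HSC range, yet the change of 4.72 ± 1.28 (adjusted p = 0.0403) lost its call when any library but ST-HSC replicate 5 was left out, with adjusted p up to 0.0963 and a value of 5.45 without ST-HSC replicate 2. In Tet2-KO the change of Gata1 was 5.10 (adjusted p = 0.00799). Gata2, which acts in stem cells, mast cells and early erythroid cells, was at 2.3, 1.78 and 3.68 against 21.9, 127, 59.8 and 48.6 CPM (4.63 ± 0.67, adjusted p = 0.00399). In Tet2-KO it was at 2.34 to 61.8 CPM in ST-HSCs and 6.07 to 12.4 CPM in CMPs, and the changes differed by 6.19 ± 1.28 (adjusted p = 0.0353). Klf1, the erythroid factor downstream of GATA1, was at 2.56, 0 and 0 against 47.7, 44.7, 26.0 and 70.9 CPM and did not pass in WT (adjusted p = 0.0561), while its change of 7.99 was called in Tet2-KO. Lyl1, a partner of GATA2, changed by 3.88 ± 0.46 in WT (adjusted p = 0.00186), or 4.56 without ST-HSC replicate 2, and by 0.42 in Tet2-KO (adjusted p = 0.783), and the test of that difference gave adjusted p = 0.159.

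The effectors of the red cell did not move as a block. Aqp1, the water channel of the red cell membrane, was higher in CMPs (3.29, 0.163 and 0.983 against 29.5, 58.1, 30.8 and 27.9 CPM, a change of 4.62 ± 0.95 with adjusted p = 0.0144, or 5.96 without ST-HSC replicate 2). Of 27 genes of heme synthesis and iron handling 7 were higher and none lower (25.9% beside 7.7% of all genes), or 4 and 1 with the GC correction. The adult beta globin genes Hbb-bt and Hbb-bs were lower in CMPs, with 132, 80.8 and 149.9 against 16.5, 20.5, 14.7 and 15.3 CPM for the former, and since they are near-identical copies their split is uncertain. Summed mature erythroid markers were at 153 to 209 CPM in ST-HSCs and 25.0 to 145 CPM in CMPs, and the part of free or carried-over red cell RNA was not tested. Car1, a carbonic anhydrase of erythroid progenitors, was at 311, 3.96 and 0.8291 CPM in ST-HSCs and 1322, 926, 349 and 887 CPM in CMPs and did not pass (adjusted p = 0.275), with ST-HSC replicate 2 close to the lowest CMP library. Car2 fell from 1567, 1886 and 1657 to 863, 636, 414 and 588 CPM (-1.44 ± 0.22, adjusted p = 0.00467), while its change was -0.01 in Tet2-KO, a difference that did not pass (adjusted p = 0.0741).

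Of 22 basophil, mast cell and eosinophil genes listed, 14 were tested. Prss34, Cma1, Prg2, Prg3, Epx, Il5ra, Tpsb2 and Tpsab1 were not. Among the 14, 7 were higher (50%, beside 7.7% of all genes) and 1 lower (7.14%, beside 4.55%), with a median of 2.32. The other 6 did not pass, among them Cpa3, Fcer1a and Gzmb. Hdc, which makes histamine, was at 0.0682, 0.372 and 0.533 CPM in ST-HSCs and 18.1, 24.9, 29.4 and 27.3 CPM in CMPs (6.14 ± 0.67, adjusted p = 0.00142). Mcpt8, the basophil protease gene, was at 0, 0.988 and 0 against 22.6, 23.6, 34.0 and 45.1 CPM (6.43 ± 1.53, adjusted p = 0.0248). The call of Mcpt8 was lost without CMP replicate 4 or 5, with adjusted p up to 0.0626, and its value was 10.19 without ST-HSC replicate 3. Ms4a2, the beta chain of the high-affinity IgE receptor, had no read in ST-HSCs and was at 9.76, 4.85, 2.05 and 5.95 CPM in CMPs, at least 140-fold higher.

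Calls among genes of stem cell identity went in 1 direction. Of 36 genes of stem cell identity tested, 22 were lower in CMPs (61.1%, beside 4.55% of all genes) and none was higher, with a median of -1.57. In Tet2-KO, 18 were lower, beside 4.6% of all genes, of which 16 were shared. Hlf, the PAR bZIP factor that marks repopulating cells (chr11:90336536-90390895, minus strand, GENCODE vM21 on mm10), was at 202, 198 and 157 CPM in ST-HSCs and 4.87, 10.2, 12.6 and 15.2 CPM in CMPs (-4.10 ± 0.37, adjusted p = 0.000653). Its ST-HSC level was above that of LT-HSCs (21.0 to 110.0 CPM), and GMPs and MEPs were at 4.69 to 7.78 and 0.775 to 3.42 CPM. Mecom, which encodes EVI1, was at 45.9, 49.2 and 58.3 against 8.4, 5.17, 8.06 and 7.63 CPM (-2.80 ± 0.22, adjusted p = 0.000388) and changed by -3.96 in Tet2-KO. Procr, the protein C receptor used to sort stem cells, was at 30.5, 27.4 and 33.9 against 2.19, 2.01, 1.38 and 4.21 CPM (-3.62 ± 0.40, adjusted p = 0.00144).

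Further genes of the list fell as well, and so did some genes of other lists. Msi2, an RNA-binding protein that regulates translation in stem cells, went from 142, 99.8 and 106 to 40.4, 32.8, 32.1 and 32.0 CPM (-1.75 ± 0.17, adjusted p = 0.000847). The surface genes Vldlr and Esam changed by -2.56 ± 0.38 and -2.26 ± 0.31, and Gata3, a T cell factor also present in stem cells, by -3.25 ± 0.55. Gprasp2, encoding a G protein-coupled receptor sorting protein, changed by -4.17 ± 0.72 (adjusted p = 0.00786), or -3.34 without ST-HSC replicate 2, where it was highest. Mllt3, which encodes AF9, fell from 47.8, 46.8 and 37.8 to 14, 23.3, 10.4 and 14.2 CPM (-1.50 ± 0.28, adjusted p = 0.011), and in Tet2-KO it was at 38.9 to 49.2 against 34.5 to 52.4 CPM, with adjusted p = 0.0635 for the difference. Of 13 HOX cluster genes tested 2 were lower (15.4%, beside 4.55% of all genes), Hoxa3 and Hoxa9, with a median of -1.05. Hoxa3 lost its call when any library but ST-HSC replicate 3 or CMP replicate 5 was left out, and Hoxa9 without ST-HSC replicate 3 or 5. Emcn, an endothelial and stem cell sialomucin listed here under adhesion and endothelial markers, fell from 68.5, 79.1 and 91.3 to 13.01, 6.07, 6.99 and 6.97 CPM (-3.26 ± 0.29, adjusted p = 0.000641).

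Of 33 genes of the signals that hold stem cells at rest, 11 were lower (33.3%, beside 4.55% of all genes), 1 was higher and 21 did not pass, with a median of -0.76. Hes1, the Notch target and repressor, was at 136, 113 and 26.4 CPM in ST-HSCs and 10.2, 6.31, 8.96 and 5.55 CPM in CMPs (-3.56 ± 0.53, adjusted p = 0.00467), with ST-HSC replicate 5 well below the other two yet above every CMP library. Foxo3, a forkhead factor of quiescence and oxidative stress defence, was at 219.6, 231 and 201 against 103, 103, 98.7 and 98.7 CPM (-1.10 ± 0.10, adjusted p = 0.000579). In Tet2-KO, Foxo3 was at 83.6 to 133 against 83.3 to 121 CPM, and the changes differed by -1.18 ± 0.22 (adjusted p = 0.0231). Cdkn1a, the p21 inhibitor of cyclin-dependent kinases, was at 508, 265 and 310.1 against 243, 179.9, 224 and 228 CPM and did not pass (adjusted p = 0.065).

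Early lymphoid genes, some of which prime multipotent cells, went both ways. Of 26 early lymphoid genes, 5 were lower (19.2%, beside 4.55% of all genes) and 3 higher (11.5%, beside 7.7%). Gimap6, a GTPase of lymphocyte survival, was at 392.3, 435 and 481 CPM in ST-HSCs and 73.7, 53.1, 78.0 and 70.1 CPM in CMPs (-2.66 ± 0.15, adjusted p = 0.000158), and changed by -2.70 in Tet2-KO. Gimap5 changed by -3.46 ± 0.29 (adjusted p = 0.000487). Of 8 Gimap genes, a family picked after values were seen, 2 were lower (25%, beside 4.55% of all genes) and 1 higher (12.5%, beside 7.7%). With the GC correction 2 were lower and none higher. Il2rg, the common gamma chain of the interleukin receptors, went from 219.5, 291 and 378 to 85.0, 77.0, 76.2 and 104 CPM (-1.79 ± 0.20, adjusted p = 0.00148). Flt3, whose product marks lymphoid-primed progenitors, was at 98.4, 101 and 89.6 against 44.7, 97.5, 69.2 and 79.2 CPM, with overlapping groups.

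Of 25 MHC genes tested, 6 were lower (24%, beside 4.55% of all genes), 2 were higher (8%, beside 7.7%) and 17 did not pass, with a median of -0.77, and with the GC correction 9 were lower and 1 higher. H2-Aa, the alpha chain of I-A, was at 97.0, 104 and 135 CPM in ST-HSCs and 4.43, 5.58, 0.905 and 3.59 CPM in CMPs, the lowest fold among called genes of at least 50 CPM in ST-HSCs whose groups do not overlap (-4.93 ± 0.56, adjusted p = 0.00158), and changed by -5.74 in Tet2-KO. H2-Eb1 changed by -4.96 ± 0.46 and H2-Ab1 by -2.14 ± 0.32. B2m, the light chain of class I and among the most abundant genes here, went from 8822, 10689 and 10855 to 4880, 4577, 4339 and 4807 CPM (-1.12 ± 0.08, adjusted p = 0.000302), a call that the GC correction removed. H2-T23, the class Ib gene of Qa-1, rose in WT (42.6, 98.5 and 82.7 to 152, 253, 237 and 191 CPM), did not pass in Tet2-KO (-0.66, adjusted p = 0.0572), and differed between them by 2.12 ± 0.37 (adjusted p = 0.0135).

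Of 58 interferon-stimulated genes tested, 20 were lower in CMPs (34.5%, beside 4.55% of all genes), 1 was higher and 37 did not pass, with a median of -1.13, and in Tet2-KO 23 were lower, beside 4.6% of all genes, of which 17 were shared. Tgtp1, a GTPase that attacks the vacuoles of intracellular parasites, was at 294, 261 and 326 CPM in ST-HSCs and 60.5, 53.1, 47.3 and 76.9 CPM in CMPs (-2.30 ± 0.18, adjusted p = 0.00037). Ifi44 changed by -2.63 ± 0.36 (adjusted p = 0.00336) and Gbp2, a guanylate-binding protein, by -2.13 ± 0.27 (adjusted p = 0.0023). Ddx58, which encodes the RNA sensor RIG-I, was at 42.7, 53.9 and 47.1 against 18.5, 16.4, 10.4 and 12.6 CPM (-1.72 ± 0.23, adjusted p = 0.00308). In LT-HSCs Tgtp1 was at 286 to 335 CPM, in GMPs at 8.41 to 20.3 CPM and in MEPs at 21.7 to 53.4 CPM. The part of poly(I:C), if any WT mouse received it, was not tested.

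Promoter windows of Tgtp1, Gbp2 and Ddx58 are shown with the interferon response element (GAAA, 2 bases of any kind, GAAA) in capitals, searched on both strands, with 40 bases on each side where the window allows.

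Tgtp1, chr11:48992274-48992363, minus strand: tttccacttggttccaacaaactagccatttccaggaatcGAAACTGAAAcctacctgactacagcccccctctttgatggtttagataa
Gbp2, chr3:142620564-142620653, plus strand: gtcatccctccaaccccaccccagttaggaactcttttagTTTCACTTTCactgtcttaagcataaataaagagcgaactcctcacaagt
Ddx58, chr4:40239776-40239863, minus strand: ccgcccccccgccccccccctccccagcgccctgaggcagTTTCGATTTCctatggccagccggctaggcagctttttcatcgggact

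The element lies 77 bases before the start of Tgtp1 on the sense strand and 59 bases before that of Gbp2 on the other strand. In Ddx58 its position on the same scale was -2, past the start, on the other strand. Of 43 list members with a promoter in the table, 26 held it (60.5%), against 3.99% of all promoters and 3.88% of those of genes tested. The share was 9.68% among promoters of all genes called lower and 3.59% among those called higher.

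Immediate early genes, which answer to stimulation and to handling of cells, went both ways in WT. Of 27 tested, 7 were lower (25.9%, beside 4.55% of all genes) and 3 higher (11.1%, beside 7.7%). Nr4a1, an orphan nuclear receptor, fell from 355, 667 and 459 to 101, 165, 121 and 105 CPM (-1.99 ± 0.25, adjusted p = 0.00244), and Nr4a2 and the zinc finger gene Klf6 changed by -2.20 ± 0.30 and -1.12 ± 0.16. Tnfaip3, the brake on NF-kB, changed by -1.73 ± 0.32. Junb, an AP-1 subunit, rose from 21.0, 26.9 and 43.0 to 97.3, 113, 135 and 203 CPM (2.18 ± 0.34, adjusted p = 0.00557), Ier2 from 94.1, 104 and 137 to 355, 418, 432 and 538 CPM, and Dusp1, a phosphatase of MAP kinases, from 155, 198 and 317 to 566, 764, 642 and 1129 CPM. In Tet2-KO, 12 of the list were lower, beside 4.6% of all genes, and none higher. There Dusp1 changed by -1.24 and Ier2 by -0.91, and the differences from WT were 3.01 ± 0.39 (adjusted p = 0.0017) and 2.85 ± 0.39 (adjusted p = 0.00242). Jun changed by 0.72 ± 0.19 in WT, short of 2-fold, and by -1.27 in Tet2-KO, a difference of 1.96 ± 0.25 (adjusted p = 0.0017).

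Many cell cycle genes were higher in CMPs. Of 51 genes of DNA replication tested, 24 were higher (47.1%, beside 7.7% of all genes) and none lower, with a median of 0.997. Of the 24, 18 were also called higher in Tet2-KO, beside 27% of all WT higher calls. With the GC correction 19 of the 51 were higher. Of 64 mitosis genes, 26 were higher (40.6%, beside 7.7%) and none lower, with a median of 1.04. Of the 26, 13 were also called higher in Tet2-KO, beside the same 27%. With the GC correction 23 of the 64 were higher. Mcm6, a subunit of the replicative helicase, was at 129.7, 93.3 and 75.3 CPM in ST-HSCs and 400.0, 377, 387 and 441 CPM in CMPs (2.02 ± 0.19, adjusted p = 0.000837). Mcm5, Mcm2, Mcm3 and Mcm7, of the same ring, changed by 1.83, 1.54, 1.24 and 1.12, and Mcm2 lost its call with the GC correction. Rrm2, the ribonucleotide reductase subunit made in S phase, changed by 2.27 ± 0.25 (adjusted p = 0.00153). Dut, which keeps uracil out of DNA, had the largest change of the list, from 19.5, 29.0 and 12.4 to 356, 229, 292 and 329.5 CPM (3.89 ± 0.33, adjusted p = 0.000501), and Rfc5, of the clamp loader, changed by 2.58 ± 0.22.

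Among mitosis genes, Ccna2, cyclin A2, was at 14.7, 24.3 and 48.8 CPM in ST-HSCs and 191, 114, 158 and 173 CPM in CMPs (2.44 ± 0.41, adjusted p = 0.00724), or 3.03 without ST-HSC replicate 5. Cdc20, the activator of the anaphase-promoting complex, was at 19.5, 36.0 and 43.2 against 106, 121, 152 and 136 CPM (1.98 ± 0.28, adjusted p = 0.00394), and Racgap1, needed for cytokinesis, and Top2a, which untangles DNA, changed by 1.97 ± 0.30 and 1.28 ± 0.23. Of 26 G1 cyclins, kinases and inhibitors 4 were higher (15.4%, beside 7.7% of all genes) and none lower, or 2 and 1 with the GC correction. Cdk6, the G1 kinase that sets how fast stem cells leave rest, was at 647, 884 and 562 against 1638, 1750, 1637 and 1478 CPM (1.23 ± 0.16, adjusted p = 0.00259), a call lost with the GC correction, and Ccne1 at 6.31, 0 and 0.557 against 35.1, 7.59, 15.1 and 18.2 CPM did not pass (adjusted p = 0.219). Myc, a driver of growth and ribosome synthesis, changed by 0.73 ± 0.15 (adjusted p = 0.0143), short of 2-fold.

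Windows of the Mcm5 and Mcm6 promoters are shown with TTTNNCGC, a form of the E2F motif, in capitals, and windows of Cdc20 and Racgap1 with TTTGAA, the core of the cell cycle homology region of mitotic genes, both searched on both strands.

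Mcm5, chr8:75109316-75109407, plus strand: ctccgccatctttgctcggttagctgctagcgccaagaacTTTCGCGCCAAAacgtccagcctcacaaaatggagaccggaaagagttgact
Mcm6, chr1:128359705-128359855, minus strand: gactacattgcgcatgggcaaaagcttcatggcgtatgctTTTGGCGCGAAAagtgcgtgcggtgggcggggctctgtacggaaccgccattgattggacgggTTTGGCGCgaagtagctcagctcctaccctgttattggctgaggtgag
Cdc20, chr4:118437316-118437401, minus strand: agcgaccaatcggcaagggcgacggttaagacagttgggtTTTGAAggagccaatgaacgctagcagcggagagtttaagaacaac
Racgap1, chr15:99651607-99651691, minus strand: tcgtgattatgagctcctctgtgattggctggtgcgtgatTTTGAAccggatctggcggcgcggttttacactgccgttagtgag

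In Mcm5 and Mcm6, matches on opposite strands overlap, so that the capitals run as 1 block. Of 42 replication genes with a promoter in the table, 16 held TTTNNCGC (38.1%), against 5.93% of all promoters and 9.64% of those of genes tested, and of 56 mitosis genes 38 held TTTGAA (67.9%), against 20.2% and 15%. Among promoters of all genes called higher the shares were 11.7% and 16.5%, and among those called lower 5.5% and 17.1%.

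Histone genes, a family picked by its stem after values were seen, were often higher. Of 61 tested, 27 were higher (44.3%, beside 7.7% of all genes) and none lower, or 22 and 1 with the GC correction, with a median of 2.37. Hist1h2ap was at 0.409, 0.639 and 3.59 CPM in ST-HSCs and 44.4, 26.9, 214 and 245 CPM in CMPs (6.39 ± 1.26, adjusted p = 0.0126, or 7.91 without ST-HSC replicate 5), and Hist1h2ao followed the same libraries (6.04 ± 1.15, or 7.37 without that replicate). Reads of such near-identical copies can be split or shared between genes by the counting, so single members are uncertain. H2afx, the variant phosphorylated at DNA breaks, was at 4.4, 4.58 and 3.94 against 136, 96.1, 214 and 242 CPM (5.32 ± 0.39, adjusted p = 0.000297), and its change exceeded that in Tet2-KO by 3.50 ± 0.50 (adjusted p = 0.00337). H2afj changed by 4.85 ± 0.90, or 6.02 without ST-HSC replicate 5. In Tet2-KO, 6 of 54 histone genes were higher, beside 4.83% of all genes, of which 4 were shared.

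Genes that fold and glycosylate proteins in the endoplasmic reticulum (ER), the entry to the secretory pathway, were often higher. Of 34 genes tested, 15 were higher (44.1%, beside 7.7% of all genes) and 1 lower (2.94%, beside 4.55%), with a median of 0.73. Calr, the calcium-binding lectin chaperone, was at 207, 243 and 247 CPM in ST-HSCs and 513, 535, 612 and 590.4 CPM in CMPs (1.28 ± 0.11, adjusted p = 0.00052). Pdia3, its disulfide isomerase partner, was at 60.1, 64.96 and 60.8 against 329.9, 399.7, 401 and 414 CPM (2.65 ± 0.12, adjusted p = 8.12e-05), and Sdf2l1, a cofactor of BiP, at 1.4, 0.697 and 1.05 against 48.7, 39.1, 60.5 and 72.7 CPM (5.69 ± 0.38, adjusted p = 0.000216). Ddost, of the oligosaccharyltransferase, changed by 3.49 ± 0.23 in WT and by 0.90 in Tet2-KO, a difference of 2.56 ± 0.33 (adjusted p = 0.0017). P4hb changed by 1.27 ± 0.16 and Creld2 by 3.10 ± 0.49. Hspa5, which encodes BiP, was at 307, 419 and 587 against 829, 784, 946 and 1043 CPM (1.05 ± 0.22, adjusted p = 0.0149). Hspa5 lies close to the 2-fold limit, and its call was lost without ST-HSC replicate 2 or CMP replicate 5, with a lowest value of 0.86. In Tet2-KO, 9 of the list were higher, beside 4.83% of all genes, of which 8 were shared.

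The Hspa5 and Calr promoters are shown with the ER stress response element (CCAAT, 9 bases of any kind, CCACG) in capitals, searched on both strands.

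Hspa5, chr2:34771985-34772083, plus strand: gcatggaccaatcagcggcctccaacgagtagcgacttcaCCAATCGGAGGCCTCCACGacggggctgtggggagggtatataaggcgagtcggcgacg
Calr, chr8:84847035-84847133, minus strand: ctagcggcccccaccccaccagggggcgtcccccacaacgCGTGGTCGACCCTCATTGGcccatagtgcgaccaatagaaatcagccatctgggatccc

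The element starts 65 bases before the start of Hspa5 on the sense strand and 162 bases before that of Calr on the other strand. It was in 7 of 26 list members with a promoter (26.9%) in 0.137% of all promoters and in 0.181% of those of genes tested.

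**Figure D4:**
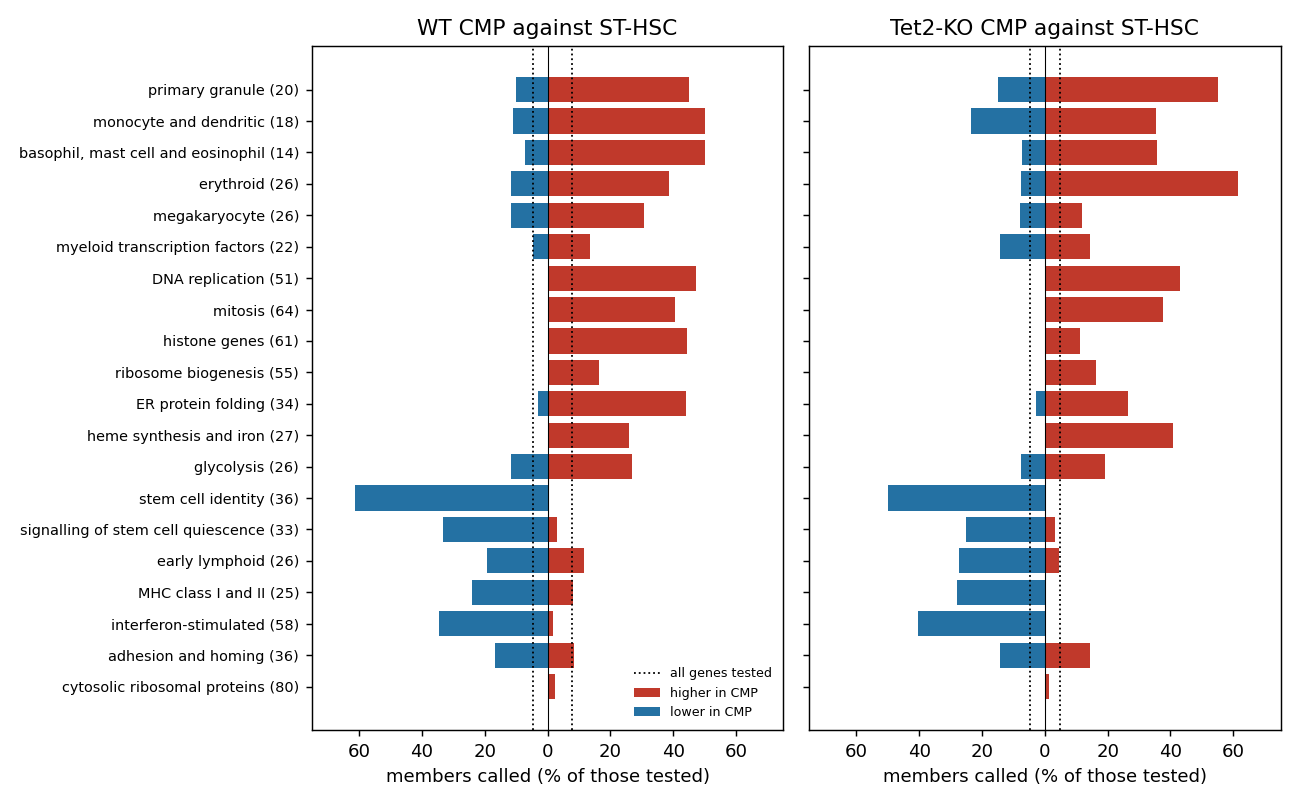
Bars give the share of tested members of 20 gene lists called higher (red, to the right) or lower (blue, to the left) in CMPs, in WT and in Tet2-KO, with the number tested in WT in brackets and dotted lines at the shares over all genes tested. Stem cell identity, interferon-stimulated and MHC genes reach left in both genotypes, replication, mitosis and granule genes reach right in both, and histone genes reach 44.3% in WT.

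Genes of energy metabolism gave a mixed picture. Of 26 glycolysis genes 7 were higher (26.9%, beside 7.7% of all genes) and 3 lower (11.5%, beside 4.55%), or 3 and 3 with the GC correction, and of 25 tricarboxylic acid cycle genes 3 were higher (12%, beside 7.7% of all genes) and none lower. Ldhb, the lactate dehydrogenase subunit that favours pyruvate formation, fell from 213, 287 and 234 CPM to 41.1, 34.5, 44.3 and 47.0 CPM (-2.55 ± 0.16, adjusted p = 0.000204), and the aldolase gene Aldoc changed by -2.59 ± 0.36. Idh2, the mitochondrial NADP isocitrate dehydrogenase, rose from 22.6, 64.5 and 40.8 to 301, 316, 401 and 326 CPM (2.98 ± 0.35, adjusted p = 0.00184), and Sdhd, of succinate dehydrogenase, changed by 1.38 ± 0.12. The 13 protein genes of the mitochondrial genome had negative values, with a median of -0.55 and with all CMP below all ST-HSC libraries for 11 of them, beside 15.7% of all genes. Their median was -0.06 with the GC correction.

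Single nuclear genes for mitochondrial proteins rose steeply, while most members of their families did not pass. Of 86 nuclear genes of the respiratory chain 8 were higher and none lower, and of 78 mitochondrial ribosomal protein genes 10 were higher and none lower (with the GC correction 1 respiratory chain gene was lower), shares of 9.3% and 12.8% beside 7.7% of all genes, in families picked after values were seen. Uqcrfs1, the Rieske iron-sulfur protein of complex III, was at 20.02, 20.6 and 19.6 CPM in ST-HSCs and 268, 235, 250 and 258 CPM in CMPs. The libraries of each group differed little, and the change of 3.66 ± 0.11 had the smallest SE of these genes (adjusted p = 1.81e-05). Cyc1, of the same complex, changed by 3.73 ± 0.20, Cox5a of complex IV by 5.08 ± 0.40, the import receptor gene Tomm20 by 3.04 ± 0.16 and the ribosomal gene Mrps24 by 5.19 ± 0.69. C1qbp, a mitochondrial matrix protein, was at 26.1, 29.3 and 30.1 against 283, 246, 239 and 254 CPM (3.17 ± 0.12, adjusted p = 3.18e-05). These steep rises were those of WT. In Tet2-KO the changes were 0.20 for Uqcrfs1, 1.64 for Cyc1, 1.21 for Cox5a, 0.51 for Tomm20, -0.05 for Mrps24 and 0.50 for C1qbp. Only that of Cyc1 was called there, and each differed from WT at an adjusted p of at most 0.05.

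Of 55 ribosome biogenesis genes 9 were higher (16.4%, beside 7.7% of all genes) and none lower, with a median of 0.29, and with the GC correction 5 were higher. Nop2, an rRNA methyltransferase, changed by 1.54 ± 0.23 (adjusted p = 0.00424) and by 1.47 in Tet2-KO. Imp3, of the small subunit processome, changed by 2.71 ± 0.15 in WT (adjusted p = 0.000124) and by -0.22 in Tet2-KO. Of 80 cytosolic ribosomal protein genes 2 were higher, Rps2 and Rpl13 (2.5%, beside 7.7% of all genes). The median of the family was -0.33 and 10 of the 80 had positive values. With the GC correction 1 of the 80 was higher and 5 were lower, beside 1020 and 796 of all 16428 genes. Rpl13 lost its call with the GC correction and when any library but ST-HSC replicate 2 or 3 was left out. Ribosomal protein genes and their many processed copies share reads, which makes single members uncertain.

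Outside the lists, Apoe, a lipid carrier, was among the largest changes, from 2.01, 5.61 and 1.88 CPM to 482, 305, 164 and 156 CPM (6.43 ± 0.69, adjusted p = 0.00134), or 7.14 without ST-HSC replicate 3. Mfsd2b, the sphingosine 1-phosphate exporter of red cells and platelets, was at 4.65, 1.84 and 3.23 against 108, 185, 147 and 113 CPM (5.42 ± 0.41, adjusted p = 0.000343) and was at 133 to 217 CPM in MEPs and 4.42 to 5.78 CPM in GMPs. Of the genes that fell, Upp1, uridine phosphorylase, went from 57.3, 58.7 and 56.6 to 4.21, 1.27, 2.07 and 2.34 CPM (-4.52 ± 0.39, adjusted p = 0.000546) and Ctla2b, a cathepsin inhibitor homologue, from 635, 680.1 and 487 to 81.3, 76.7, 83.1 and 82.8 CPM (-2.89 ± 0.13, adjusted p = 8.12e-05). Myl10, P2ry10, Gm5111, Gsta4, Il18 and Tnip3 changed by -4.41, -4.17, -4.01, -3.02, -2.99 and -2.94, and each was also called lower in Tet2-KO. Gcsam, a germinal center signalling protein, changed by -3.60, or -4.29 without CMP replicate 3. Of 26 genes of purine and pyrimidine synthesis, 5 were higher (19.2%, beside 7.7% of all genes) and 1, Pfas, was lower (3.85%, beside 4.55%). With the GC correction 3 were higher and 1 lower. Pfas ran in opposite directions: it was at 51.4, 57.7 and 45.9 against 2.7, 1.29, 1.77 and 5.8 CPM in WT (-4.14 ± 0.52, adjusted p = 0.00226) and at 0.877 to 24.9 against 106 to 162 CPM in Tet2-KO (3.20, adjusted p = 0.0251).

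Where CMPs stood between the next populations was read from mean levels, without a test. Of the 1265 genes higher in CMPs, 1025 were also at least 2-fold above ST-HSCs in GMPs and 893 in MEPs. GMPs exceeded MEPs by at least 2-fold for 349 (27.6%), MEPs exceeded GMPs for 142 (11.2%), and 774 (61.2%) lay within 2-fold, beside 17.2%, 9.51% and 73.3% of all genes tested. The CMP level lay between GMP and MEP for 737 of the 1265 (58.3%) and for 257 of the 747 genes lower in CMPs (34.4%), beside 50.6% of all genes. Of the 747 genes lower in CMPs, 644 were at least 2-fold below ST-HSCs in GMPs and 631 in MEPs. Of all 16428 genes, 3049 were at least 2-fold above and 2850 below ST-HSCs in GMPs, and 2121 above and 3236 below in MEPs. LT-HSCs were within 2-fold of ST-HSCs for 1116 of the 1265 (88.2%) and 626 of the 747 (83.8%), beside 91.2% of all genes. These comparisons share the ST-HSC libraries.

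The WT and Tet2-KO changes differed at an adjusted p of at most 0.05 for 162 of 18817 genes (0.861%), 133 with a larger and 29 with a smaller value in WT, and 2008 genes had an unadjusted p under 0.05. The count of 162 ran from 92 to 206 over fits with 1 library left out, and was 92 to 104 without WT CMP replicate 2, 4 or 5, WT ST-HSC replicate 2 or Tet2-KO CMP replicate 4 or 5. Of the 162, 120 were called higher and 5 lower in the WT contrast. The 133 genes were mostly lower in Tet2-KO in CMPs, GMPs and MEPs. Their median of Tet2-KO minus WT log2 levels was 0.01 in LT-HSCs, 0.17 in ST-HSCs and -0.20 in CLPs, and -2.21 in CMPs, -2.06 in GMPs and -2.26 in MEPs. All WT libraries lay above all Tet2-KO libraries for 131 of them in CMPs, 120 in GMPs and 126 in MEPs, and for 5 in LT-HSCs, 1 in ST-HSCs and 8 in CLPs. Over all 16428 genes these counts were 1456, 1213, 1276, 629, 800 and 233. For the 29 genes with a smaller value in WT, the medians were -0.76 in LT-HSCs and -1.10 in ST-HSCs, against 0.33 for CMPs, 0.02 for GMPs, -0.02 for MEPs and 0.37 for CLPs, with all WT above all Tet2-KO libraries for 26 in ST-HSCs, 15 in LT-HSCs and 1 in CMPs. The CMP and ST-HSC values entered the choice of these genes and are a description, and the GMP, MEP, LT-HSC and CLP values did not enter it. The cause was not tested.

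Uqcrfs1 showed this pattern. In WT it was at 14.1 to 23.4 CPM in LT-HSCs, 222 to 327 CPM in GMPs and 422 to 458 CPM in MEPs, and in Tet2-KO at 15.8 to 40.8 CPM in ST-HSCs, 24.7 to 36.6 CPM in CMPs, 38.6 to 50.1 CPM in GMPs and 28.3 to 43.3 CPM in MEPs. Its changes differed by 3.43 ± 0.35 (adjusted p = 0.000478). Tmed2, of the coated vesicles between ER and Golgi, was at 47.0, 68.2 and 49.8 CPM in WT ST-HSCs, 466, 434, 442 and 443 CPM in WT CMPs and 54.5 to 103 CPM in Tet2-KO CMPs. Spi1 was at 177 to 243 CPM in WT GMPs and 32.3 to 36.3 CPM in Tet2-KO GMPs. Mpo did not share the pattern and was at 1618 to 2231 CPM in Tet2-KO CMPs and 21810 to 26607 CPM in Tet2-KO GMPs. The 341 genes called higher in both genotypes had medians of -0.09 in CMPs and 0.09 in GMPs, but the Tet2-KO call that chose them favours a CMP value near 0. All 1265 genes higher in WT CMPs, chosen by WT values alone, had medians of -0.54 in CMPs, -0.16 in GMPs and -0.46 in MEPs. For 555 of them all WT CMP libraries lay above all Tet2-KO CMP libraries, beside 1456 of all 16428 genes.

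**Figure D5:**
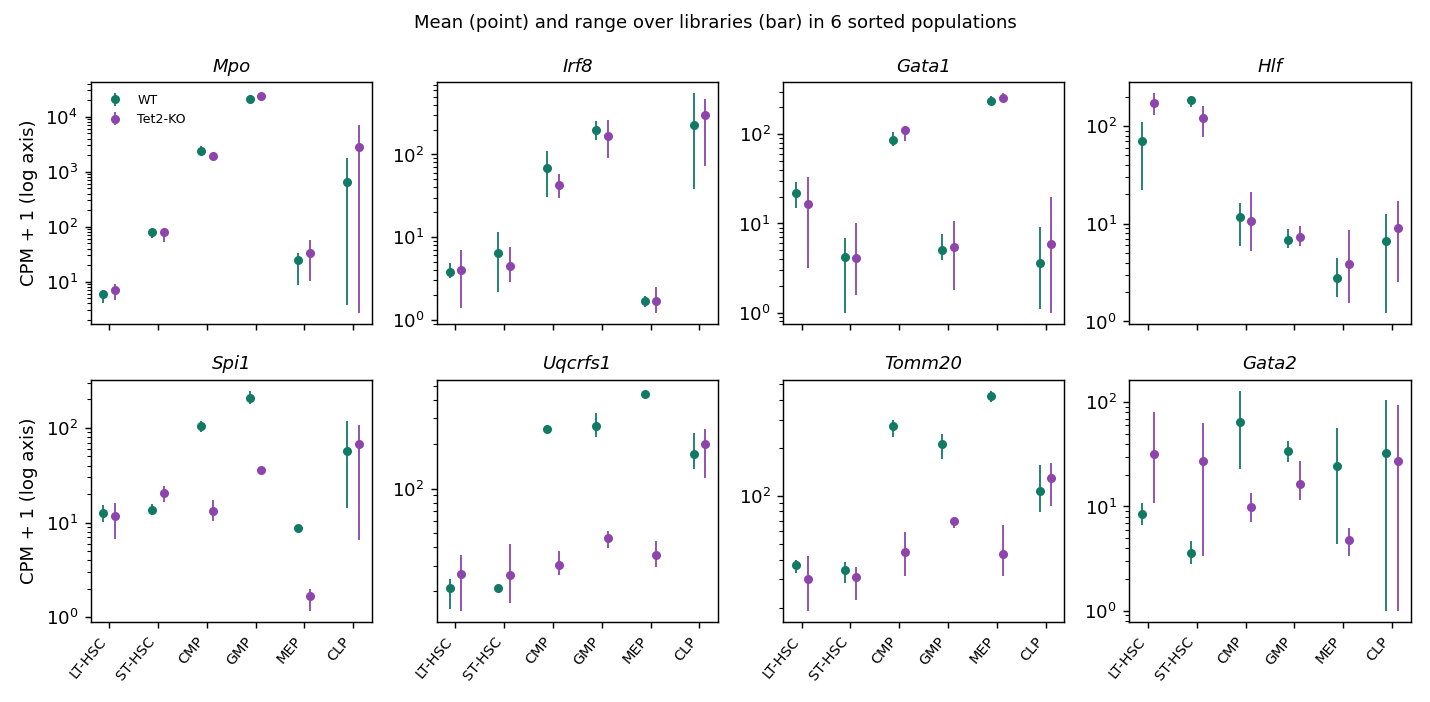
Mean CPM plus 1 on a log axis (points) with the range over libraries (bars) is plotted for 8 genes in 6 populations of WT (green) and Tet2-KO mice (purple). Mpo, Irf8, Gata1 and Hlf have similar profiles in both genotypes, whereas Spi1, Uqcrfs1 and Tomm20 rise from ST-HSCs to CMPs in WT, with Uqcrfs1 at 235 to 268 CPM in WT CMPs against 24.7 to 36.6 CPM in Tet2-KO CMPs.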

How the data were processed

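Cells were sorted from mouse bone marrow, amplified by a modified SMART-Seq2 protocol and sequenced. The authors trimmed reads with Trim Galore (0.5.0 in the methods, 0.6.7 in the submitters' processing notes) and mapped them to mm10 with Hisat2 (2.1.0 in the methods, 7.5.0 in those notes). They deposited raw counts per gene, not normalized. The counting program, its annotation and its use of strand are not given in the sources used here, so overlapping and antisense genes could share reads. Libraries held 51966192 to 78705617 counts, and p-values and ranges cover what these 7 libraries vary by.

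Counts were filtered (filterByExpr), scaled by TMM and tested with edgeR 4.0.16 in R 4.3.3 by a quasi-likelihood fit of both groups, with a prior count of 2 for log2 values. A call needs an adjusted p of 0.05 and a 2-fold change. CPM are these counts scaled to a common TMM library size over the 46 libraries. The Tet2-KO contrast was fitted alike, and the genotype difference as an interaction over 15 libraries. The script was tested on simulated data. Genes named are the 15 largest calls each way at 50 CPM or more with groups that do not overlap, members of the lists, and gate genes. Rgs1, Gm45717, AY036118, CT010467.1, Tmed2 and C1qbp fall outside this rule and were chosen with their values known. The members and lists were chosen with earlier results of these data known. Alternatives were DESeq2 1.42.0, RLE scaling, other filters, all 46 libraries, a replicate block, leaving out each library and a GC correction. Positions and GC content are those of GENCODE vM21 on mm10, and promoter sequences are RefSeq, GRCm38.p6. Plots used matplotlib 3.10.9.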

Additional observations from a re-analysis of the deposited data

Results flagged for a closer look

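Among 142 named genes, 7 had 1 CMP library far from the other 3, by the gap to the nearest library as a share of the range, and chance alone, at about 1 in 20, gives 7 as well. These were Ctsg at 1502 CPM in replicate 4, Cd63 at 168, Msi2 at 40.4, Emcn at 13.01 and Sdhd at 356 CPM in replicate 2, and Aqp1 at 58.1 and Racgap1 at 76.1 CPM in replicate 3. Groups of 3 libraries, as for ST-HSCs, were not examined in this way.

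For 22 named genes the change from ST-HSC to CMP differed between WT and Tet2-KO in the test of the difference. The WT minus Tet2-KO value, in log2 units, was 3.71 for Spi1, 6.19 for Gata2, 2.12 for H2-T23 and 3.01 for Dusp1. It was 2.85 for Ier2, 1.96 for Jun, 3.50 for H2afx and 2.101 for Idh2. For Uqcrfs1 it was 3.43, for Cox5a 3.85, for Tomm20 2.51, for Cyc1 2.07, for Imp3 2.90 and for Mrps24 5.22. For Ddost it was 2.56, for Apoe 3.88, for Tmed2 2.89, for C1qbp 2.65, for Rps2 2.17 and for Creld2 2.32. A positive value need not mean a larger change in WT, since Jun changed by 0.72 in WT and by -1.27 in Tet2-KO. The value was -1.18 for Foxo3 and -7.36 for Pfas. The cause of these differences was not tested.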

How the results depend on the processing

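Against 1265 higher and 747 lower calls, DESeq2 gave 1892 and 1217, a fit of all 46 libraries 511 and 168, and fits without 1 library 975 to 1298 and 577 to 667. With a replicate block the counts were 579 and 289. Same-numbered libraries had deviation correlations of 0.04 to 0.05, under the 0.1 set for pairing, so the numbers were treated as names, and whether they mark a shared mouse is not given in the sources used here. For Tet2-KO, DESeq2 gave 1329 and 1441, the block 444 and 435, and fits without 1 library 510 to 903 and 473 to 730. The genotype difference was called for 1000 genes by DESeq2 and for 92 to 206 without 1 library. Of 131 calls followed gene by gene, all kept their call with DESeq2 and with RLE scaling, 128 without the low-count filter, 126 with the GC correction, 112 with the block and 78 in the fit of all 46 libraries, whose losses are named above, and no called gene changed sign in these fits. The block lost Irf8, Zeb2, Gata1, Ly6c2, Cx3cr1, Aqp1, Hbb-bs, Mmrn1, Mcpt8, Ms4a2, Mllt3, H2-Ab1, Aldoc, Gprasp2, Bcl2, Hoxa3, Hoxa9, Rpl13 and AY036118. The cause of lost calls was not tested. With 3 ST-HSC libraries, genes whose ST-HSC counts were near 0 in some libraries had wide errors, as for Klf1 (SE 1.73, at 0 in 2 ST-HSC libraries).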

Other observations

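Of 36 adhesion and homing genes tested between WT ST-HSCs and CMPs, 3 were higher in CMPs (8.33%, beside 7.7% of all genes) and 6 lower (16.7%, beside 4.55%). Of 15 BCL2 family genes, Bcl2 and Bax were higher (13.3%, beside 7.7%) and Mcl1 was lower (6.67%, beside 4.55%). The call of Bcl2 was lost without CMP replicate 3 or 4 or ST-HSC replicate 5 and that of Mcl1 without ST-HSC replicate 3. Bax, a pore-forming effector of apoptosis, was at 13.4, 19.8 and 17.5 CPM in ST-HSCs and 64.4, 53.7, 60.7 and 66.9 CPM in CMPs (1.86 ± 0.19, edgeR adjusted p = 0.00102), with all CMP libraries above, and changed by 1.63 in Tet2-KO.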
